A study of Drosophila melanogaster with 3 samples.

Results

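The genes described here are 10 genes of neural fate and of neuroblasts in *Drosophila melanogaster*, given by name: *elav*, *numb*, *brat*, *pros*, *mira*, *insc*, *da*, *dpn*, *ase* and *wor*. The choice was made with earlier results of these data known. These 10 genes were set against all 13945 protein-coding genes on the main chromosome arms. The study mapped a green fluorescent protein (GFP) fusion by chromatin immunoprecipitation and sequencing (ChIP-seq) in whole embryos of both sexes, 0 to 24 hours old, with an antibody against GFP and sonicated chromatin of 200 to 800 bp. All 3 samples were biological replicates of 1 transgenic line, so there was 1 group and no untagged or treated group among them. The labels disagree on the tagged protein. The sample descriptions name a CG45071 fusion with GFP at the carboxyl end, while the strain and antibody fields name CG6854 and the insertion is said to target CTPsyn, the gene for CTP synthase. The chromatin came from every cell of the embryo, so strong signal in few cells and weak signal in many cannot be told apart.

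Neuroblasts are the neural stem cells of the fly. Each division leaves a neuroblast and a smaller ganglion mother cell, because fate determinants are moved to the basal side of the dividing cell and are inherited by the ganglion mother cell alone. Inscuteable (*insc*) ties the polarity complex of the apical cortex to the spindle. Miranda (*mira*) is the adaptor that carries the homeodomain protein Prospero (*pros*) and the translational repressor Brain tumor (*brat*) to the basal cortex, and Numb (*numb*) is an inhibitor of Notch that is inherited basally as well. The transcription factors Deadpan (*dpn*), Asense (*ase*) and Worniu (*wor*) mark neuroblasts, Daughterless (*da*) is the broadly expressed partner of the proneural basic helix-loop-helix proteins, and the RNA-binding protein Elav (*elav*) marks neurons.

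Peaks were read from deposited lists on the dm6 build. The replicates and their pool each came with 30000 peaks called at a loose threshold, many of which can be background. The irreproducible discovery rate (IDR), which weighs how peaks rank in the replicates, reduced these to an optimal list of 3545 peaks, and they were the 3545 strongest of the pooled list. A peak belonged to a gene when its summit, the position of highest signal, lay in the gene body or within 5 kb of it. Peaks were ranked within each list by the signal that the authors' caller gave, with rank 1 the strongest. Read numbers cannot be had from peak lists, so the depth behind a peak is unknown. A replicate's top list below is its 3545 strongest peaks.

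The neuronal marker *elav* and the asymmetric division genes *brat* and *numb* carried the strongest peaks of the 10 genes, and the neuroblast factor genes *dpn*, *ase* and *wor* had no optimal peak at all. Of the 10 genes, 5 had an optimal summit in the window (*elav*, *numb*, *brat*, *pros* and *da*), against 39.4% of protein-coding genes, and 5 had none (*mira*, *insc*, *dpn*, *ase* and *wor*). The 10 windows held 77 pooled peaks, of which 12 were optimal. All 10 genes had a pooled summit, as did 88% of protein-coding genes. All told, members had 0.404 optimal summits per 10 kb of window, and protein-coding genes had 0.382. For pooled summits the densities were 2.59 per 10 kb in members and 2.82 in protein-coding genes.

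**Figure D1:**
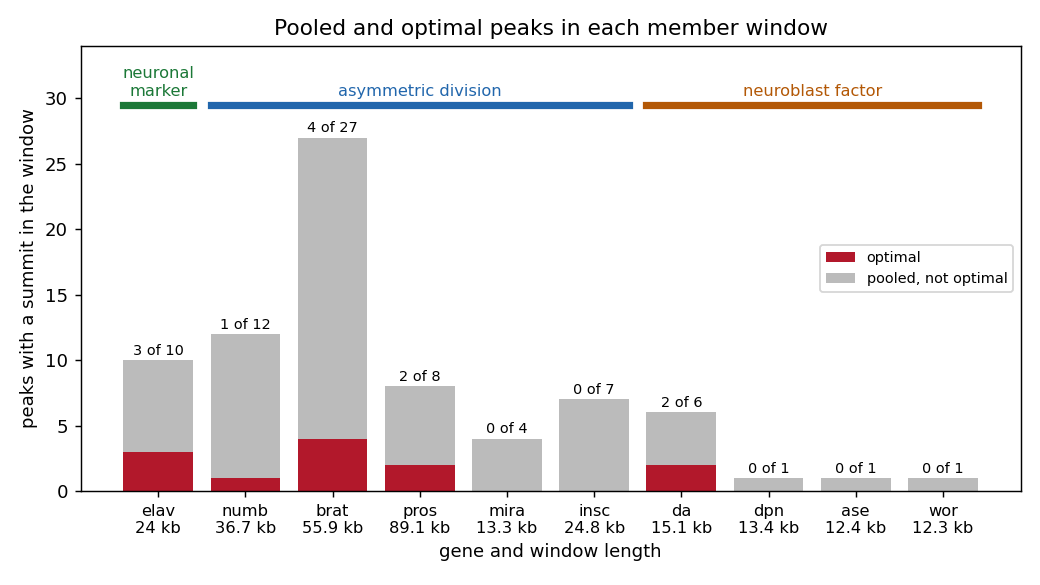
Number of peaks with a summit in each gene body and 5 kb either side, with the window length under each name. Red bars are optimal peaks and grey bars are the other pooled peaks; *brat* had 4 of 27, *elav* 3 of 10, and *dpn*, *ase* and *wor* 0 of 1 each.

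Members with an optimal peak were the longer ones, and longer windows held optimal summits more often over the genome too. Protein-coding genes were split by window length into 3 bins of about equal size. Of the 6 members in the bin of long windows (13.5 kb and more), 5 had an optimal summit, against 51.4% of the protein-coding genes in that bin, and *insc*, with a window of 24.8 kb, was the exception. In the middle bin were *mira*, *dpn*, *ase* and *wor*, with windows of 12.3 to 13.4 kb, and 0 of 4 had one, against 38.8% of its genes. No member was in the bin of short windows, where the share was 28.1%. The part of gene length in the difference between members was not tested.

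Ranks within each bin of window length put the members in order. The long bin ran from 13.5 to 1976 kb, so its genes were not closely matched in length. Among all genes of the long bin, 1.31% had a stronger best peak than *elav*, 5.61% than *brat*, 6.11% than *numb*, 20.3% than *pros*, 38.9% than *da* and 60.9% than *insc*. In the middle bin, 71.5% of genes had a stronger best peak than *mira*, 73.7% than *wor*, 79.2% than *dpn* and 82.4% than *ase*. The value for *pros* rests on a peak past its 3' end, at the start site of the neighbouring gene *mgr*.

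**Figure D2:**
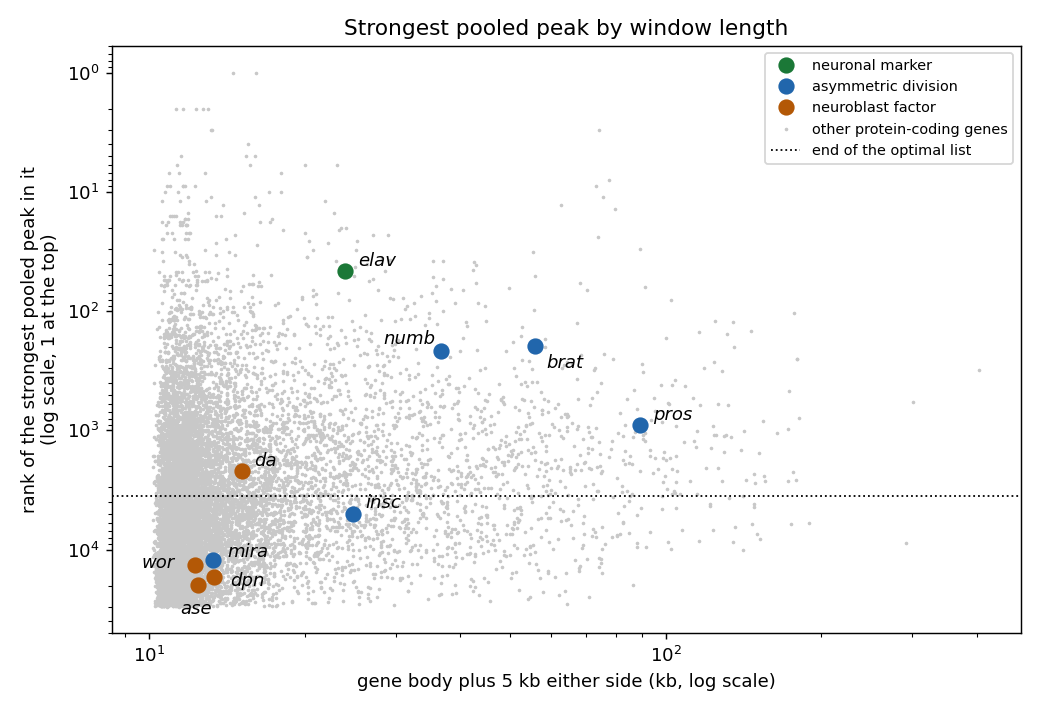
Rank of the strongest pooled peak in each window (log axis, rank 1 at the top) against the length of the window (log axis, kb), for the 10 members (coloured by class) and other protein-coding genes with a pooled peak (grey). *elav* at rank 46, *brat* at 196 and *numb* at 215 lie well above the end of the optimal list at 3545 (dotted line), and *mira*, *wor*, *dpn* and *ase* lie between 12238 and 19640.

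The neuronal marker gene *elav* (FBgn0260400, X:509235-523226, minus strand) had 3 optimal peaks among 10 pooled ones. It overlaps *arg*, an arginase gene on the other strand, and shares its start site with the noncoding gene lncRNA:enrr. The strongest peak (X:523328-523660) ranked 46 in the pooled list, with its summit at -248 bp from the shared transcription start site (TSS). Its rank was 32 in replicate 1, 73 in replicate 2 and 36 in replicate 3, and its signals there were 217, 314 and 339 on the scales of their own lists. The mean rank was 47.0 ± 22.6 (SD, n = 3). The replicate summits lay 16, 8 and 12 bp from the pooled summit. No other member peak reached a rank under 160 in any replicate, so the *elav* peak was stronger than all of them in each of the 3. The 201 bases around this summit (X:523374-523574 on dm6, from the RefSeq assembly, read on the minus strand of *elav*) are shown because this is the strongest peak at a member's start site. They hold no GAGAG, TATCGATA or CANNTG on either strand.
elav: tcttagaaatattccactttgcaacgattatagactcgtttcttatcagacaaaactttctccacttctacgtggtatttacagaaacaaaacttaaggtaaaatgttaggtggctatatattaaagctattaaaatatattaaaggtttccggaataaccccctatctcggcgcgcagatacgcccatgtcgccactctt

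The other *elav* peaks were weaker and lay inside the gene. The peak at X:522407-522842 (rank 1226) had its summit at 601 bp past the same TSS, in intron 1 of the 3 transcripts that start there, an intron of up to 3743 bp. It ranked 1042, 1657 and 1496 in the 3 replicates, all within their top lists. The peak at X:515647-516082 (rank 2866) lay 7361 bp past the TSS, in the 3' untranslated region of 1 of the 4 annotated transcripts and past the end of the other 3. It ranked 3035, 4252 and 2176, so replicate 2 placed it outside its top list. The second annotated *elav* TSS, 2941 bp inside the gene, had no pooled summit within 500 bp, and replicates 1 and 2 ranked their nearest peaks there at 23719 and 6683.

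Among the asymmetric division genes, *numb* (FBgn0002973, 2L:9437469-9464184, plus strand) had 1 optimal peak among 12 pooled ones, and it marked the inner of its 2 start sites. The peak at 2L:9449425-9449753 (rank 215) had its summit at -237 bp from the inner TSS, from which 2 of the 3 annotated transcripts start, and in intron 2 of the long transcript. It ranked 196, 250 and 176 in replicates 1, 2 and 3 (mean 207 ± 38.3, SD, n = 3), with signals of 120, 195 and 191. The outer TSS, 12361 bp away, had a pooled peak of rank 4796 with its summit 30 bp past it. That start site ranked 2950 in replicate 2 and 9648 in replicate 3, and replicate 1 had no summit within 500 bp. The inner site thus outranked the outer one in each replicate that had both. The sequence around the inner summit (2L:9449493-9449693, plus strand) is given because the 2 start sites of the gene differed in rank, and it holds none of the same motifs.
numb: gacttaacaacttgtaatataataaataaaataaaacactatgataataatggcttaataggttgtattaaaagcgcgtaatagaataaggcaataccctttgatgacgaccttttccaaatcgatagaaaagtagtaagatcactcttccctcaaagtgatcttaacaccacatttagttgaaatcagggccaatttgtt

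*brat* (FBgn0010300, 2L:19133816-19179758, plus strand) held the most peaks of any member, with 4 optimal among 27 pooled ones, and its strongest lay away from its start sites. That peak (2L:19165012-19165283, rank 196) had its summit at -710 bp from the innermost of the 3 annotated TSSs, in an intron of 4 of the 5 transcripts, of up to 20240 bp. It ranked 237, 160 and 204 in replicates 1, 2 and 3 (mean 200.3 ± 38.6, SD, n = 3), with signals of 110, 247 and 181. These ranks overlapped those of the *numb* peak, so the order of the pair was not resolved by the replicates. The innermost TSS itself had a pooled peak of rank 19608 only. The 201 bases at this intronic summit (2L:19165057-19165257, plus strand) are shown because it is the strongest member peak outside a promoter, with capitals marking a match to GAGAG on the other strand.
brat intron: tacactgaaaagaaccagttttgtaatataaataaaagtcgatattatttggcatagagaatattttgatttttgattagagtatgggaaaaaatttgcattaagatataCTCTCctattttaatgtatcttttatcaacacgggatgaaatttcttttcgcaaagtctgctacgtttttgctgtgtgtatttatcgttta

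The middle *brat* TSS, used by 2 of 5 transcripts, had the optimal peak at 2L:19158300-19158735 (rank 1331), with its summit at -22 bp, over the noncoding gene lncRNA:CR44977 on the other strand. It ranked 1071, 2230 and 1183 in the replicates. This summit is the nearest to a start site among the optimal peaks of the members, and its sequence, cut at the TSS to leave out the untranslated region, runs over 122 bases of the plus strand (2L:19158418-19158539).
brat promoter: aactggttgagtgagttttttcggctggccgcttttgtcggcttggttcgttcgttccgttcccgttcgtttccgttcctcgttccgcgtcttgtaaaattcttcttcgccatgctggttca

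The remaining *brat* peaks were in introns. The peak at 2L:19141695-19142130 (rank 945) lay 8097 bp past the outermost TSS, in intron 1 (11517 bp) of 2 transcripts, and ranked 1680, 676 and 1511. The start site nearest to it was that of *Polr1D*, at -6680 bp. The peak at 2L:19159424-19159859 (rank 3260) lay 1102 bp past the middle TSS and -343 bp from the start of lncRNA:CR44977. It ranked 3233, 2913 and 6729, outside the top list of replicate 3. The replicate 2 summit lay at -268 bp from the pooled one, and the peak of replicate 2 with a summit within 100 bp ranked 3744, outside its top list. The outermost TSS had a pooled peak of rank 10227, with its best replicate peaks at 8597, 9717 and 13153. The summit of that pooled peak lay at -310 bp from the *brat* TSS but at -23 bp from an annotated start site of *Polr1D*. The middle *brat* start site outranked the outermost one in all 3 replicates.

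*pros* (FBgn0004595, 3R:11328480-11407627, plus strand), the longest member at 79.1 kb, had 2 optimal peaks, neither at its own start sites. The stronger (3R:11409725-11410160, rank 904) lay 2316 bp past the 3' end of the gene and at -68 bp from the TSS of *mgr*, in the interval between *mgr* and the divergent gene *Irbp*. It ranked 1408, 704 and 1329. It is in the window only because of the 5 kb flank. The other (3R:11392764-11393199, rank 1547) lay in the last exon of *pros*, in the 3' untranslated region, 20194 bp past the nearest *pros* TSS and at -14936 bp from the start of *mRpL40*. It ranked 1400, 1755 and 2017 (mean 1724 ± 309.7, SD, n = 3). Of the 4 annotated start sites, the 3 outer ones had no summit within 500 bp in the pooled list or in any replicate. The inner one, used by 3 of 6 transcripts, had a pooled peak of rank 5267 at 15 bp. Replicate 2 ranked that site 2756, within its top list, and replicates 1 and 3 ranked it 14853 and 6574.

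**Figure D3:**
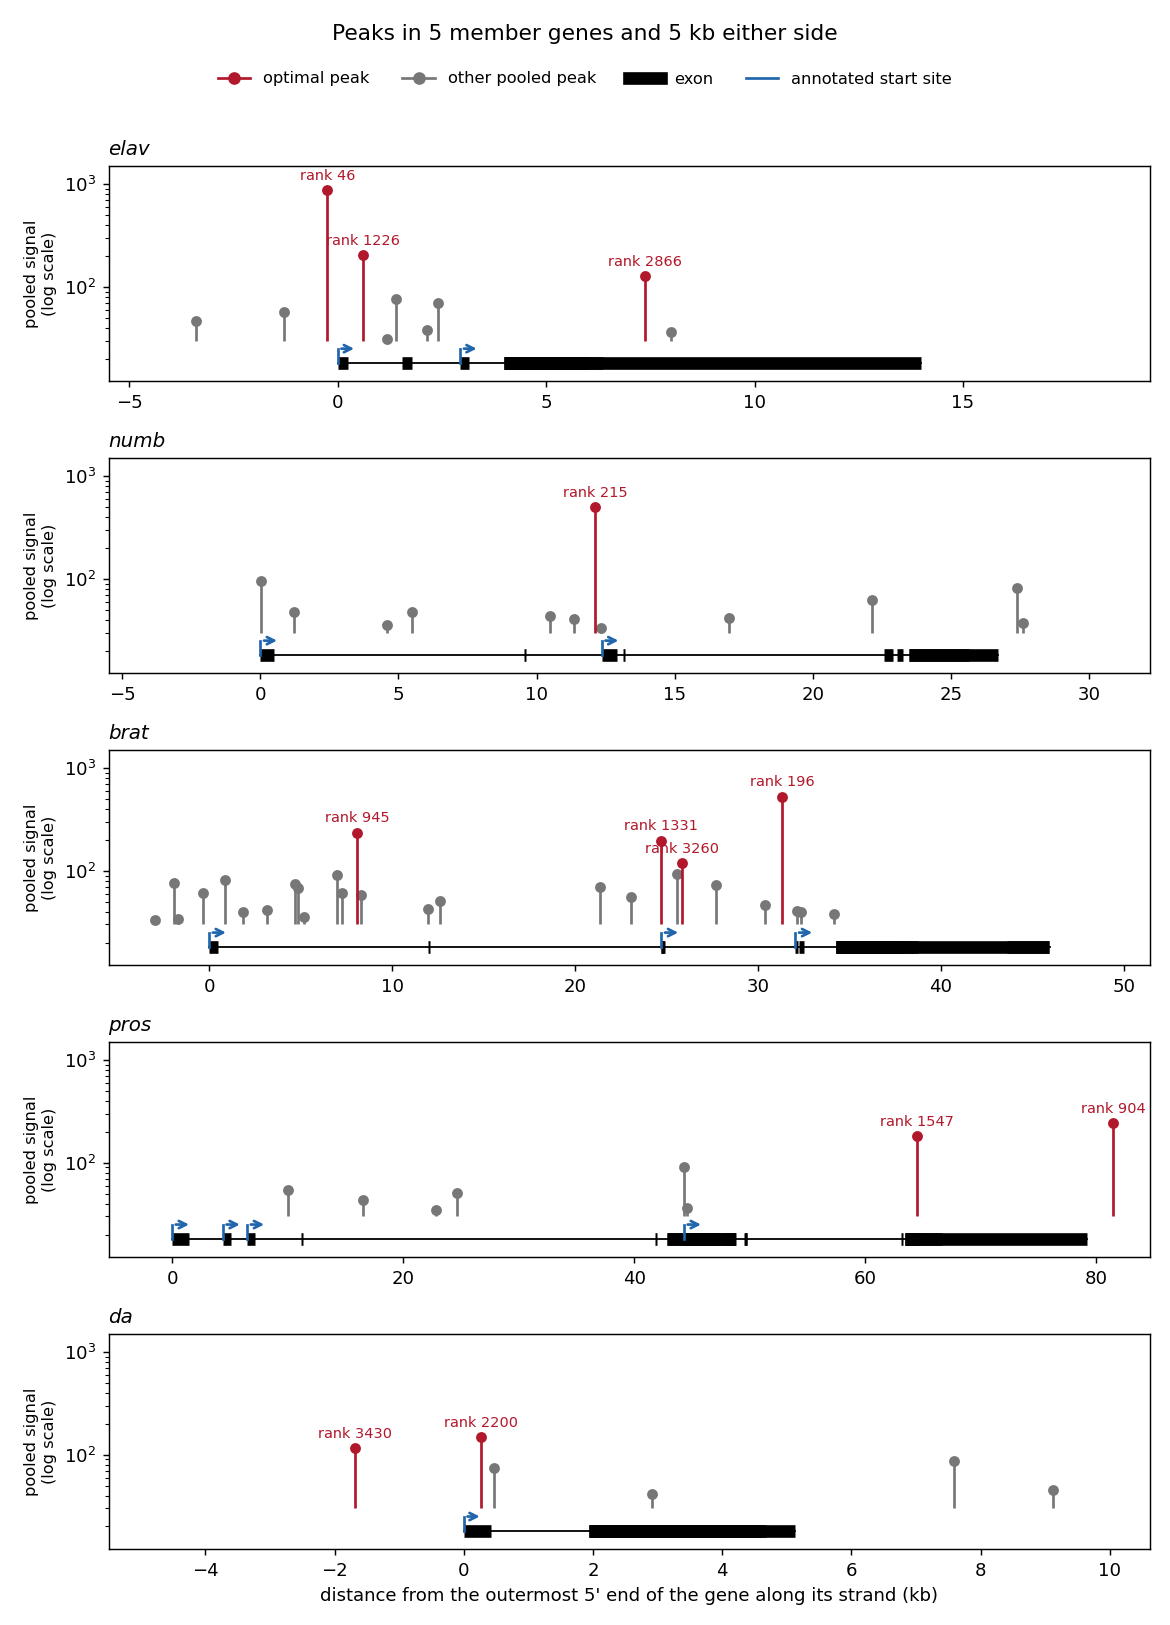
Pooled signal (log axis) of every pooled peak in the windows of the 5 genes with an optimal peak, against distance in kb from the outermost 5' end of the gene along its strand. Red points are optimal peaks with their ranks, grey points are other pooled peaks, black boxes are exons and blue arrows are annotated start sites; the *numb* peak of rank 215 stands at the inner start site, and the *pros* peaks lie at 64502 and 81463 bp.

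*mira* and *insc* had pooled peaks only. At *mira* (FBgn0021776, 3R:19931799-19935120), which lies inside *Hs6st* on the same strand, the strongest of 4 pooled peaks ranked 12238, with its summit at -225 bp from the outer TSS. The overlapping peaks ranked 27952 in replicate 1 and 8703 in replicate 2, and replicate 3 had none. *insc* (FBgn0011674, 2R:20821262-20836028) came closest of the 5 genes without an optimal peak. The strongest of its 7 pooled peaks (2R:20830588-20831023, rank 4995) lay in intron 1, 5222 bp past the TSS and 1612 bp past an inner TSS of *sktl*, a phosphatidylinositol phosphate kinase gene that shares the *insc* start site. Overlapping peaks ranked 3054, 3926 and 5802, and only that of replicate 1 was in a top list. Its summit lay 232 bp away, so with a match of summits within 100 bp no top list held this peak. The shared start site of *insc* and *sktl* had a peak of rank 6763 at -321 bp.

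Of the neuroblast factor genes, *da* alone had optimal peaks. *da* (FBgn0267821, 2L:10388105-10393228, plus strand) had 1 at its own start (2L:10388147-10388582, rank 2200), with its summit 260 bp past the TSS in the first exon of all 4 transcripts. It ranked 2360, 2375 and 2162 (mean 2299 ± 119, SD, n = 3), and its ratio of highest to lowest replicate rank, 1.10, was the smallest of the 12. The other *da* peak (2L:10386205-10386640, rank 3430) lay -1682 bp from the *da* TSS and at -161 bp from the start of *Cdk1*, between *Cdk1* and *mRpS7*. It ranked 3094, 3607 and 9142 and was in the top list of replicate 1 only. Its pooled signal of 116 was just above the 114 at which the optimal list ended.

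*dpn*, *ase* and *wor* had 1 pooled peak each, all upstream of the gene and far down the list. The *wor* peak (FBgn0001983, 2L) ranked 13382 at -4252 bp, which is -3477 bp from the start of *CG4161*, and was found in replicates 2 and 3, at 16772 and 13245. The *dpn* peak (FBgn0010109, 2R) ranked 16897 at -3417 bp, which is -1524 bp from the TSS of *pnut*, and ranked 12581 in replicate 1 and 27967 in replicate 3. The *ase* peak (FBgn0000137, X) ranked 19640 at -2826 bp and was found in replicate 2 only, at 9332. Within 500 bp of their start sites the pooled list had no summit for any of the 3 genes. A single replicate peak lay there for *wor* (replicate 2, rank 16222) and for *dpn* (replicate 3, rank 25900), and none for *ase*.

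By class, the neuronal marker had 3 optimal summits in 24.0 kb of window, 1.25 per 10 kb. The 5 asymmetric division genes had 7 in 219.9 kb, 0.318 per 10 kb, ranging from 0 for *mira* and *insc* to 0.715 for *brat*. The 4 neuroblast factor genes had 2 in 53.2 kb, 0.376 per 10 kb, all of it from *da* at 1.32. Of the pooled peaks, 3 of 10 were optimal at the neuronal marker, 7 of 58 at asymmetric division genes and 2 of 9 at neuroblast factor genes. The share was 13.6% in the windows of all protein-coding genes, with a peak counted in each window that held it, and 11.8% of the whole pooled list. The median of the best pooled rank per gene was 904 for asymmetric division and 15139.5 for neuroblast factor genes, against 4299 over protein-coding genes with a pooled peak. By window length, that median over protein-coding genes was 6212 in the short, 4633 in the middle and 2997 in the long bin. The classes were not matched for window length. The 904 is the rank of the *mgr* peak in the flank of *pros*, and in the gene body alone the best rank at *pros* was 1547. Classes of 1, 5 and 4 genes were set side by side with no test.

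The places of the 12 optimal summits were mixed. Within 500 bp of an own TSS lay 4 of them, at *elav*, *numb*, *brat* and *da*, so 4 of 10 members had an optimal summit there, against 14.1% of protein-coding genes. Any annotated start site counted. Members had from 1 (*da*) to 4 (*pros*) of them, and the 14.1% was not matched for this number. Another 3 of the 12 summits lay at start sites of other genes (*mgr*, *Cdk1* and lncRNA:CR44977). The remaining 5 were 3 intronic summits, 2 at *brat* and 1 at *elav*, and 2 summits in 3' untranslated regions, at *elav* and *pros*. Over all optimal peaks, 52.8% were within 500 bp of a TSS, 34.4% in introns and 0.987% in 3' untranslated regions. None of the 12 was in a coding exon.

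Replicates held most of these peaks. All 12 were found in each relaxed replicate list, 9 of them in all 3 top lists, 2 in 2 and 1 in 1. With replicate summits required within 100 bp, 9 were in all 3, 1 in 2 and 2 in 1. Over the whole optimal list, 57.2% of peaks were in all 3 top lists. The highest replicate rank was a median of 1.98 times the lowest for the 12 peaks and 2.21 times for all optimal peaks. Of the 65 other pooled peaks in the windows, 34 overlapped a peak in every replicate list, 21 in 2, 9 in 1 and 1 in none. Overlapping pooled peaks can share a replicate peak, so these are not all separate regions. By gene, 5 of 10 members had a summit in the top list of every replicate, against 29.2% of protein-coding genes. These were the genes with an optimal peak. The optimal list was made from the same replicates, so this match is not independent support. The 29.2% was not split by window length.

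**Figure D4:**
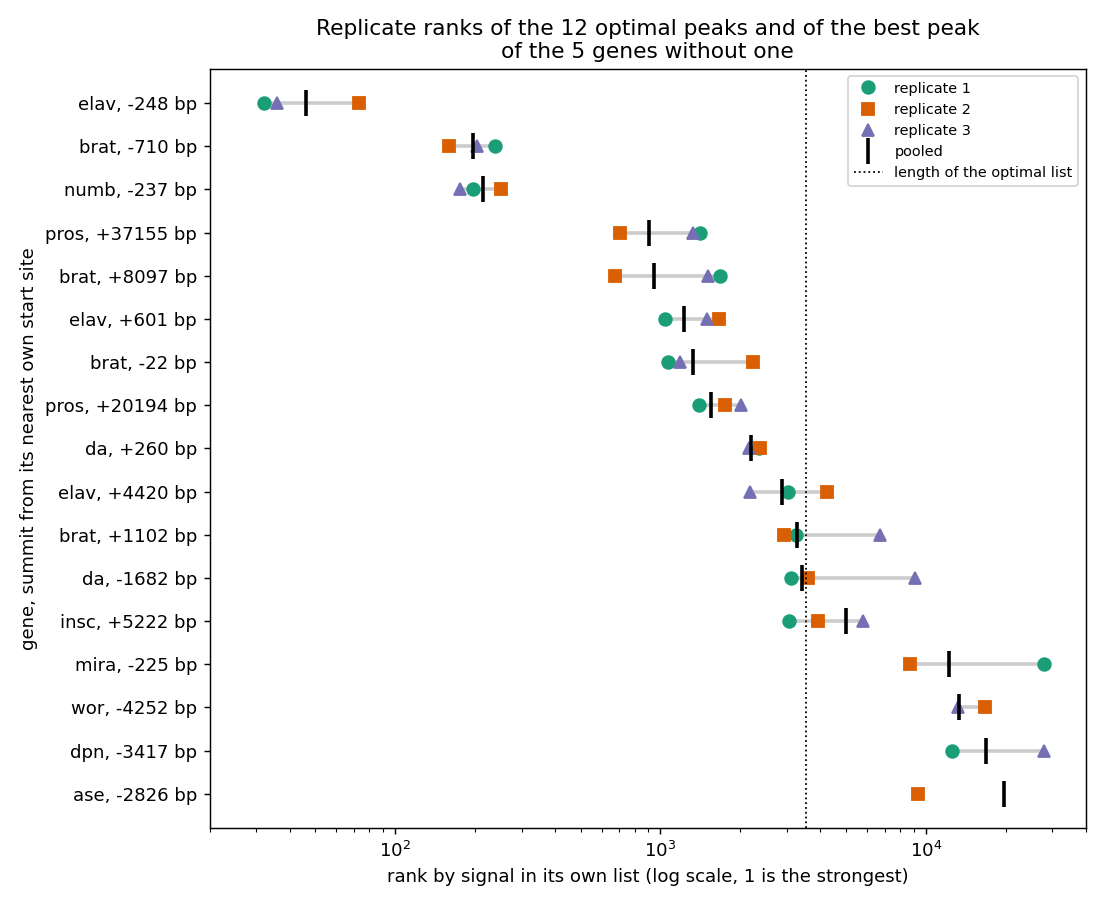
Rank of each peak in the lists of replicates 1 to 3 (symbols, joined by a grey line) and in the pooled list (black bar), on a log axis with the strongest at the left. Rows are the 12 optimal peaks by pooled rank and then the best pooled peak of the 5 genes without one, named by gene and distance of the summit from the nearest own start site; a missing symbol means no overlapping peak. The 3 replicates of the first row, *elav* at -248 bp, lie between ranks 32 and 73, left of all others.

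By the ranges of their replicate ranks, only the strongest peaks stood apart. The 3 replicate ranks of the *elav* promoter peak (32 to 73) did not overlap those of the *brat* intron peak (160 to 237) or the *numb* promoter peak (176 to 250), which overlapped each other. Both were separate from the ranks of every weaker peak, which began at 676. Next came the *mgr* peak beside *pros*, the *elav* intron peak, the *pros* last-exon peak and the *brat* peaks of pooled rank 945 and 1331. The ranks of these 5 overlapped, and those of the *da* promoter peak and the *elav* 3' peak overlapped the *brat* peak of rank 1331 in turn, so no gap followed them. Compared within each replicate, the *brat* peak of rank 1331 still outranked the *da* promoter peak and the *elav* 3' peak in all 3. The *elav* intron peak likewise outranked the *pros* last-exon peak in all 3. Some other pairs changed order, such as the *mgr* peak and the *elav* intron peak. With 3 replicates of 1 group, no test of these differences was made.

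Short sequence motifs were counted on both strands in the 201 bases around each of the 12 optimal summits. GAGAG, a core of the element bound by GAGA factor, was in 6 of 12 (50%), against 28.3% of all optimal and 25.7% of all pooled windows of the same length. The last-exon peak of *pros* had 10 overlapping matches, the *elav* intron peak had 3, and the *brat* peaks of rank 196 and 945, the *mgr* peak and the *elav* 3' peak had 1 each. The E-box CANNTG, the kind of element that Daughterless, its partners and Asense bind, was in 3 of 12 (25%), against 60.7% of optimal and 64.2% of pooled windows. Its matches were at *elav* (rank 2866), *brat* (rank 3260) and *pros* (rank 1547), and none were at the *elav*, *numb*, *brat* or *da* promoter peaks. TATCGATA (the DREF element, in 1.92% of optimal windows), CAGGTG (bound by Snail-type factors such as Worniu, 5.47%), CAGGTAG (Zelda, 0.931%) and CACGTG (2.71%) were in 0 of 12. CAGGTG and CACGTG are forms of CANNTG. The median GC content was 34.3% in the 12 windows, 36.3% in all optimal and 41.8% in all pooled windows. Its part in these shares was not tested, and 12 windows from 5 genes are too few for a firm share.

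Lists of other genes of the same processes were counted by the same rules, against the same 14.1% at the TSS and 39.4% in the window. These shares were not matched to the lists for window length or number of start sites, and longer windows held optimal summits more often. The part of gene length in the differences between lists was not tested. Of 15 genes of the spindle and cell cortex, 2 had an optimal summit at their own TSS, *zip*, a non-muscle myosin heavy chain gene (rank 1731, at -164 bp; ranks 1925, 2416 and 1859 in the replicates), and *par-6* of the apical polarity complex (rank 2012, at -424 bp; 3063, 1429 and 3641). The kinase genes *aPKC* and *aurA* had none there, and 9 of the 15 had an optimal summit in the window. Of 7 proneural genes, 0 had an optimal summit at the TSS or in the window, *ac* and *amos* among them. Of 13 neuroblast identity genes, *hb*, a temporal identity factor, had one at its TSS (rank 797, at 278 bp; 401, 859 and 1446), *cas* and *D* did not, and 3 of 13 had one in the window. Of 13 neuronal and glial genes, 2 had one at the TSS, the adhesion molecule gene *Fas2* (rank 908, at 9 bp; 1530, 1228 and 826) and *fne*, a relative of *elav* (rank 1976, at -464 bp; 2440, 3954 and 1544). The active zone gene *brp* and the microtubule-binding protein gene *futsch* had none there, and 9 of 13 had one in the window. Together 5 of 48 listed genes (10.4%) had an optimal summit at the TSS and 21 of 48 (43.8%) in the window, both near the values for protein-coding genes. The list genes were chosen with earlier results of these data known.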

How the data were processed

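Whole embryos of 1 line in 3 biological replicates gave the peak lists. Per the submitters' file list, a replicate's relaxed list came from its alignments and a control, the pooled list from all 3 sets of alignments, and the optimal list from those by IDR. Aligner, peak caller and IDR threshold are not given in the sources used here. Column 7 of the deposited lists is the authors' signal for each peak, which was used only to rank peaks within a list. Lists on dm3, the control and the alignments were not used.

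Genes, start sites and introns came from Ensembl release 115 on the same assembly as dm6, and sequence from the RefSeq copy of that assembly (Release 6). Coordinates count from 1. For 1 optimal peak the summit lay past the peak's end and was set to its last base. Intron numbers are those of the transcript with the longest intron at the summit. A replicate's rank for a peak is that of its strongest peak overlapping by 1 bp or more. "All protein-coding genes" are those on 2L, 2R, 3L, 3R, 4 and X. Gene and TSS assignment was checked on 200 planted summits, and all 200 were placed correctly. No statistical test was made.

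The members and lists were chosen with earlier results of these data known. Named genes are all members, each gene whose TSS is nearest to a described summit, and, of each list, up to 4 genes with the strongest optimal TSS peak and up to 2, first by alphabet, without one. Other windows, list lengths and matches were tried as alternatives. Each replicate's top list was also left out of the requirements in turn, with the optimal list itself not remade. Python 3.11.15, numpy 2.4.6 and pandas 2.3.3 were used.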

Additional observations from a re-analysis of the deposited data

How the results depend on the processing

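Of 90 values recomputed under the alternatives, 69 stayed within 1.5 times or the replicate spread and 21 moved. In 3 settings (without replicate 1, 2 or 3), optimal peaks had to be in the top lists of both other replicates. The optimal list itself was not remade and still drew on all 3 replicates, so a list made without 1 of them was not tested. These settings kept all 5 genes, with 9 to 10 of the 12 summits, and 4 genes at their own TSS. The shares of protein-coding genes fell to 28.9 to 30.8% in the window and 9.54 to 10.1% at the TSS. Neuroblast factor windows then had 1 summit in each of the 3 settings instead of 2, and the listed genes with an optimal summit at the TSS numbered 3 to 4 instead of 5. With the gene body alone, 5 members still had an optimal summit, against 11.2% of protein-coding genes, and neuroblast factor windows had 1. That share was not split by gene length, and the 5 gene bodies ran from 5.12 kb (*da*) to 79.1 kb (*pros*). The best rank became 1226 at *elav* in the gene body alone and, with this or a 2 kb flank, 1547 at *pros*. Among the 1000 strongest optimal peaks there were 5 summits at 4 members (*da* was lost), with 1 in neuronal marker, 4 in asymmetric division and 0 in neuroblast factor windows, against 16.1% of protein-coding genes. At the TSS that list left 2 members, 2 listed genes and 4.87% of protein-coding genes. A TSS window of 100 bp left 1 member, 1 listed gene and 5.01% of protein-coding genes, and one of 1000 bp gave 8 listed genes. Counting any overlap of a peak with the window added *dpn*. The replicate match within 100 bp could not be given for *mira*, *insc*, *dpn*, *ase* and *wor*, nor the pooled rank in the gene body alone for *mira* and in either shorter window for *dpn*, *ase* and *wor*. No paired analysis was possible because there is 1 group. Depth is unknown, so an absent peak cannot be told from too few reads.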

Other observations

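Within the member windows, 5 peaks of a single replicate's top list overlapped no optimal peak. In replicate 2 they were at the outer start site of *numb* (rank 2950), at the inner start site of *pros* (rank 2756) and in intron 1 of *brat* (rank 2695, 4690 bp past the outermost TSS). Replicate 3 had 1 in *elav* (rank 3430, 1301 bp past the TSS) and replicate 1 had 1 in *insc* (rank 3054). The *brat* peak ranked 7391 in the pooled list and 12545 and 18085 in replicates 1 and 3.

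An optimal peak of rank 3471 had its summit 5043 bp from *dpn*, just past the flank, and 102 bp from the TSS of *pnut*, a septin gene. Its edge reached into the *dpn* window.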
